A study of Mus musculus with 2 samples.

Results

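The mitosis genes described here are 35 genes whose products carry a cell into and through cell division. They were chosen by name from a list of mitotic genes and not by their levels, with earlier results of these data known. They were 35 of the 32285 genes in the count tables, and all 35 were detected in both libraries. The study sequenced single cells sorted from mouse liver on postnatal day 15, with 1 c-Maf KO library, whose mice lacked the transcription factor c-Maf (gene Maf) in endothelial cells, and 1 control library. Each library pooled 1 male and 1 female, and the sources used here do not name the promoter that drives the deletion, the strain or the alleles. The sort kept endothelial and hematopoietic cells, and the authors' annotation names 23 clusters, of which 7 were taken as endothelial and 14 as hematopoietic.

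Mitosis runs in a fixed order: cyclins and kinases start it, condensin and topoisomerase compact the chromosomes, kinetochores bind them to a spindle, a checkpoint waits for every attachment, and degradation of cyclins lets the cell divide. Many genes of this machinery are transcribed mainly late in the cell cycle. Their RNA was also found here in cells that the authors called G1 or S. It is therefore not read as a mark of only those cells that have copied their DNA. In the liver of a young mouse, endothelial cells multiply as the organ grows, and the hematopoietic cells that were made there before birth leave or mature.

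The values are unique molecular identifiers (UMIs, each a counted RNA molecule), summed over the cells of a cluster in a library and expressed per 1000000 UMIs of those cells (CPM). Intervals are exact 95% intervals for counting error only. With 1 library per group there was no replicate and no test, and a difference between the libraries cannot be told apart from a difference between the mice. A rule of size set the calls of higher and lower: the sums compared differed at least 1.5-fold, held 50 UMIs or more between them, and had a ratio whose interval left out 1.

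In c-Maf KO 8166 of 9058 barcodes were annotated, with 51774798 UMIs, and in control 7669 of 9038, with 45157041 UMIs. The endothelial cells numbered 2991 in c-Maf KO and 2948 in control, with a median of 7320 UMIs per cell in c-Maf KO and 4985.5 in control. The hematopoietic cells numbered 5085 in c-Maf KO and 4599 in control. Maf itself had 162 CPM in c-Maf KO and 2070 CPM in control endothelial cells. In hematopoietic cells Maf was lower in c-Maf KO too, at 52.5 CPM against 152.5 CPM in control (log2 -1.54, -1.62 to -1.45). The cause of that difference was not tested. The libraries shared 21 cell barcodes. Scrublet marked 190 c-Maf KO and 167 control cells as doublets, and they were kept.

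In endothelial cells the 35 genes together had 1684 CPM in c-Maf KO (1667 to 1701) and 629.6 CPM in control (617.5 to 641.9), a 2.67-fold difference (log2 1.42, 1.39 to 1.45). In hematopoietic cells of the same libraries they had 2962 CPM in c-Maf KO and 1946 CPM in control, a 1.52-fold difference (log2 0.61). The mix of hematopoietic clusters differed between the libraries. Cluster B1 held 21.9% of hematopoietic cells in c-Maf KO and 6.41% in control, and cluster K 3.80% in c-Maf KO and 16.7% in control. No hematopoietic level at a common mix of clusters was computed. The libraries also differed in how many cells lay in the cycling endothelial cluster. This cluster, C-EC, held 408 of 2991 endothelial cells in c-Maf KO (13.6%) and 89 of 2948 in control (3.02%). It carried 74.5% of the endothelial UMIs of these genes in c-Maf KO and 63.9% in control. The cycling hematopoietic cluster, C1, also held more cells of the c-Maf KO library, with 637 of 5085 hematopoietic cells in c-Maf KO (12.5%) and 272 of 4599 in control (5.91%). It carried 69.0% of the hematopoietic UMIs of these genes in c-Maf KO and 54.6% in control. Within C-EC the level was 8089 CPM in c-Maf KO and 10249 CPM in control (log2 -0.34), which did not pass the size rule.

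Each library could be divided in part by the sex of its mice. Cells with Xist and no UMI of 4 Y-linked genes were taken as female-type and the reverse as male-type. The other cells fell in neither type. Of 2991 c-Maf KO endothelial cells 1692 were female-type and 328 male-type, and of 2948 control ones 772 and 846. Of 5085 c-Maf KO hematopoietic cells 2515 were female-type and 1120 male-type, and of 4599 control ones 1691 and 1192. Female-type endothelial cells had 1725 CPM in c-Maf KO and 904 CPM in control (log2 0.93). Male-type ones had 1522 CPM in c-Maf KO and 412 CPM in control (log2 1.88), so the endothelial level was higher in c-Maf KO in both types. Among hematopoietic cells the female-type level was 3174 CPM in c-Maf KO and 2946 CPM in control (log2 0.11). The male-type level was 3229 CPM in c-Maf KO and 1182 CPM in control (log2 1.45). No member passed the size rule in female-type hematopoietic cells, where 2.72% of all genes with enough UMIs were called higher and 5.54% lower. In male-type ones 34 of the 35 were called higher and none lower, against 10.5% and 17.3% of all genes. Each type is 1 mouse per library, so sex, genotype and mouse cannot be told apart there.

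Every cluster had a level for these genes, and most lay far below the cycling ones. These genes may have helped to form the clusters, so levels and shares inside and outside C-EC and C1 are a description. C1 had 9289 CPM in c-Maf KO and 9667 CPM in control. T-Foxp3 had 3780 CPM in c-Maf KO and 3072 CPM in control, and Leukocytes_1 had 2548 CPM in c-Maf KO and 1989 CPM in control. Neutrophils had 1475 CPM in c-Maf KO and 2568 CPM in control, the widest gap in that direction among clusters of over 200 cells in each library. The clusters B1, B2 and B3 lay between 268 and 347 CPM in both libraries. Cluster K had 337 CPM in c-Maf KO and 356 CPM in control.

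**Figure D1:**
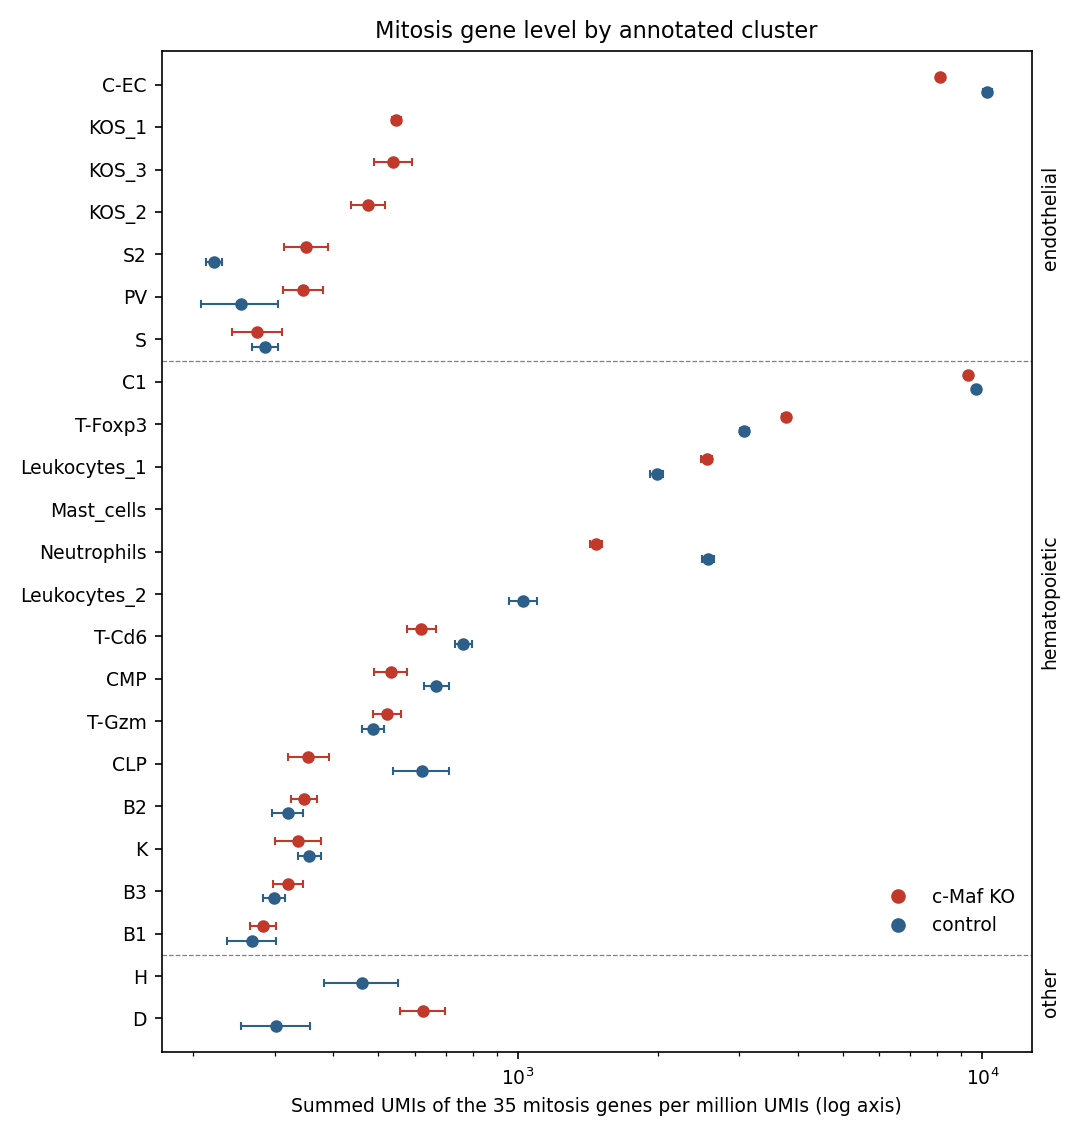
Summed level of the 35 mitosis genes in CPM (log axis) in each annotated cluster, c-Maf KO in red above control in blue, with exact Poisson 95% intervals; clusters with under 50 cells in a library are not drawn for it, and dashed lines part endothelial, hematopoietic and other clusters. C-EC and C1 stand furthest right, between 8089 and 10249 CPM, and clusters S, S2, KOS_1, KOS_2 and KOS_3 of c-Maf KO lie between 275 and 548 CPM.

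Outside C-EC the endothelial level of these genes was 508 CPM in c-Maf KO and 236.5 CPM in control, a 2.15-fold difference (log2 1.10, 1.05 to 1.16). The clusters that make up this remainder differ between the libraries. KOS_1, KOS_2 and KOS_3 held 1356, 518 and 238 c-Maf KO cells but 1, 21 and 2 control cells, and had 548, 477 and 540 CPM in c-Maf KO. S and S2 held 223 and 113 cells in c-Maf KO and 1320 and 1459 cells in control. In S the level was 275 CPM in c-Maf KO and 286 CPM in control, with intervals that overlap. In S2 it was 351 CPM in c-Maf KO and 222 CPM in control. With each cluster given its control weight in both libraries, the endothelial log2 ratio was 0.021, so the sum depends on the clusters the cells were placed in, and the c-Maf KO side then rests on the few S and S2 cells. KOS_2 is endothelial by its name alone, and without it the endothelial log2 ratio was 1.47.

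The authors' phase calls divide these cells further. Of the 35 genes 29 are on the G2/M list shipped with Seurat, a tool the submitters name, so levels by phase are a description. KOS_1 held 1047 cells called G1, 308 called S and 1 called G2M in c-Maf KO. Its S-called cells had 1076 CPM and a median of 6 of the 35 genes detected, and its G1-called cells had 378 CPM and a median of 2. Endothelial cells called G1 had 386 CPM in c-Maf KO and 222 CPM in control. Hematopoietic cells called G1 had 288.5 CPM in c-Maf KO and 278 CPM in control.

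Shares of cells were read after each cell was thinned to 1128 UMIs, and shallower cells were left out (231 c-Maf KO and 363 control endothelial cells). UMIs of at least 2 of the genes were then found in 21.1% of c-Maf KO endothelial cells (19.6 to 22.7) and 5.96% of control ones (5.08 to 6.94). Without C-EC the shares were 8.68% in c-Maf KO and 3.004% in control. In B3, a cluster with one of the lowest levels, taken as a background (median 3612 UMIs in c-Maf KO and 4414 in control), they were 5.01% in c-Maf KO and 4.33% in control, so the control share outside C-EC was not above it. Among hematopoietic cells the shares were 18.5% in c-Maf KO and 12.7% in control. Unthinned, the endothelial shares were 60.4% in c-Maf KO and 27.8% in control, at the different depths given above.

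All 35 genes were higher in c-Maf KO endothelial cells by the size rule, where 14.2% of the 11927 genes with enough UMIs were called higher and 15.5% lower. The median log2 ratio of the 35 was 1.53, against -0.08 for all genes with enough UMIs. In hematopoietic cells 21 of the 35 were called higher and none lower, against 5.44% and 9.14% of all genes, with a median log2 ratio of 0.64. The count of 21 was 0 at a fold of 2, where 1.65% of all genes were called higher and 4.43% lower.

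**Figure D2:**
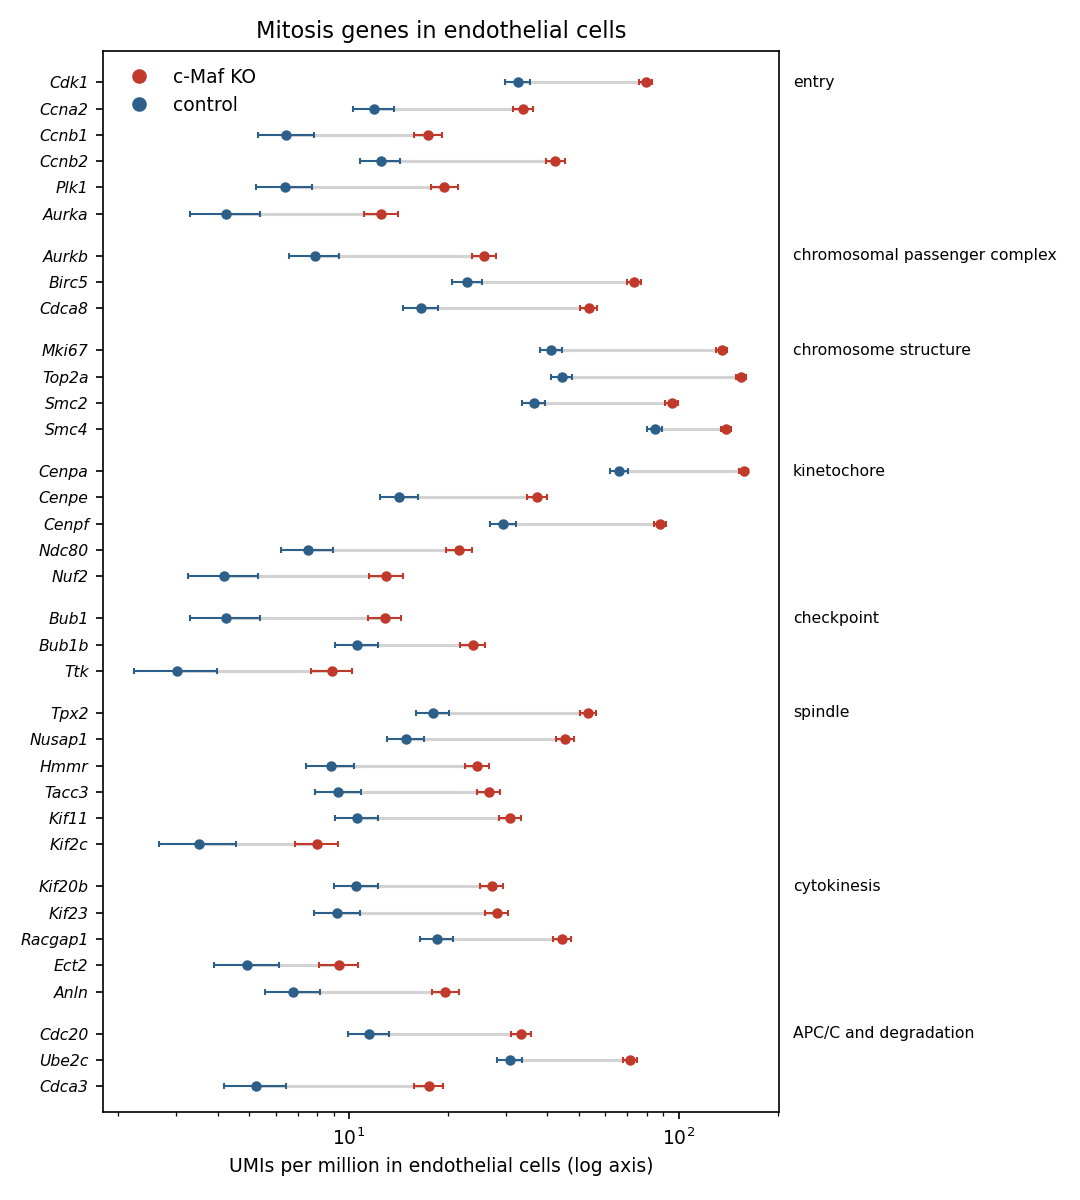
Level of each mitosis gene in endothelial cells of c-Maf KO (red) and control (blue), in CPM on a log axis with exact Poisson 95% intervals, grouped by role. Every gene lies further right in c-Maf KO, and Smc4 has the shortest line.

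The genes that start mitosis were all higher in c-Maf KO endothelial cells. Cdk1, the kinase that drives entry, had 79.5 CPM in c-Maf KO and 32.5 CPM in control (log2 1.29, 1.15 to 1.43). Its partners Ccna2, Ccnb1 and Ccnb2, the A and B cyclins, had log2 ratios of 1.496, 1.42 and 1.76. Ccnb2 had the highest ratio of the group, at 42.3 CPM in c-Maf KO and 12.5 CPM in control. The mitotic kinases Plk1 and Aurka had log2 ratios of 1.60 and 1.56. In hematopoietic cells Ccnb2 had 101 CPM in c-Maf KO and 57.6 CPM in control (log2 0.81), and Cdk1 (0.47) and Plk1 (0.50) did not pass the rule.

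The 3 genes of the chromosomal passenger complex, which corrects faulty attachments, were all higher in c-Maf KO endothelial cells. Its kinase Aurkb had 25.7 CPM in c-Maf KO and 7.88 CPM in control (log2 1.70). Birc5 (survivin), which tethers the kinase, had 73.3 CPM in c-Maf KO and 22.8 CPM in control (log2 1.68). Cdca8 (borealin) had 53.4 CPM in c-Maf KO and 16.6 CPM in control (log2 1.69). The 3 intervals overlap, and of these genes only Cdca8 passed the rule in hematopoietic cells, at 0.71.

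Among the genes of chromosome structure, Top2a, which untangles DNA, had the highest log2 ratio of all 35 in endothelial cells. It had 154 CPM in c-Maf KO and 44.3 CPM in control (log2 1.80, 1.69 to 1.92). Mki67 (Ki-67), which coats mitotic chromosomes, had 135 CPM in c-Maf KO and 41.1 CPM in control (log2 1.72). The condensin subunits had smaller ratios. Smc2 had 95.3 CPM in c-Maf KO and 36.4 CPM in control (log2 1.39), and Smc4 had 139.5 CPM in c-Maf KO and 84.7 CPM in control. Smc4 had the smallest log2 ratio of the 35, at 0.72 (0.63 to 0.81).

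The kinetochore genes covered a log2 range of 1.25 to 1.63. Cenpa, the histone variant that marks the centromere, had 158 CPM in c-Maf KO and 66.1 CPM in control (log2 1.25). Nuf2 and Ndc80, subunits of the complex that grips microtubules, had log2 ratios of 1.63 and 1.52. Cenpf, a protein of the outer kinetochore, had 87.9 CPM in c-Maf KO and 29.4 CPM in control (log2 1.58), and the kinesin Cenpe a log2 ratio of 1.39. The checkpoint kinases Bub1 and Ttk were at 1.59 and 1.55, and Bub1b (BubR1) at 1.16. Bub1b had 23.7 CPM in c-Maf KO and 10.6 CPM in control, and in hematopoietic cells it had the largest log2 ratio of the 35, at 0.87.

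The spindle genes lay close together, with log2 ratios in endothelial cells of 1.47 to 1.60 for Tpx2, Hmmr, the microtubule-bundling protein Nusap1, the spindle-stabilising protein Tacc3 and Kif11, the kinesin that pushes the poles apart. Tpx2, which activates Aurora A on the spindle, had 53.2 CPM in c-Maf KO and 17.98 CPM in control. Kif2c, a kinesin that takes microtubules apart, had a log2 ratio of 1.18, on 181 UMIs in c-Maf KO and 57 in control. The cytokinesis genes had the lowest median of the 8 roles, at 1.36. Ect2, which switches on RhoA at the cleavage site, had 9.33 CPM in c-Maf KO and 4.93 CPM in control (log2 0.92, 0.54 to 1.31). Racgap1 had a log2 ratio of 1.26 and its partner in centralspindlin, Kif23, 1.60. The kinesin Kif20b had a log2 ratio of 1.36. Anln (anillin), the scaffold of the contractile ring, had 19.6 CPM in c-Maf KO and 6.77 CPM in control (log2 1.53).

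The genes of the last group act with the anaphase-promoting complex or in degradation. Cdc20, its activator, had 33.3 CPM in c-Maf KO and 11.5 CPM in control endothelial cells (log2 1.53). Ube2c, the ubiquitin-conjugating enzyme of that complex, had 71.2 CPM in c-Maf KO and 30.8 CPM in control (log2 1.21). Cdca3, which takes part in the degradation that lets cells enter mitosis, had 17.5 CPM in c-Maf KO and 5.23 CPM in control (log2 1.73). In hematopoietic cells Cdc20 (0.80) and Cdca3 (0.85) passed the rule and Ube2c (0.51) did not. Exons of Nusap1, Ube2c, Ccna2, Cdc20, Cdca8 and Tacc3 overlap a gene on the other strand in GENCODE M21, and Ccnb1 and Ccnb2 have pseudogenes there. The sources used here do not say how the counting treated such reads.

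The genes share promoter letters that their selection did not use. The RefSeq promoter table of build GRCm38.p6, with 250 bases before and 50 after each start, held 31 of the 35. The hexamer TTTGAA, read on either strand, is the core of the cell cycle homology region, an element of genes expressed late in the cycle. It stood in the window of 24 of the 31 genes (77.4%), against 20.2% of the 27025 symbols in the table. CCAAT on either strand was found in 23 of 31 (74.2%) against 41.1%, and at least 2 copies in 16 of 31 (51.6%) against 13.3%. Both motifs together were found in 20 of 31 (64.5%) against 7.97%. A match is a description of these letters and not of binding. The stretches of 30 bases around the copy nearest to the start are shown for genes that the results turn on, with the hexamer in capitals, on the strand of the gene:
Cdk1: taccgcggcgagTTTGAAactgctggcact
Ccnb2: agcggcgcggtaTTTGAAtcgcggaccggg
Cenpa: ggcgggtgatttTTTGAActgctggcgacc
Top2a: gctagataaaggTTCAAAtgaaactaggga
Anln: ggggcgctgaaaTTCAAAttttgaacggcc
Racgap1: ctggtgcgtgatTTTGAAccggatctggcg
Ect2: ccgtttaccggaTTTGAAacacactcacaa
Cdca3: cgtggagggaagTTTGAAactccgggcttt
Ube2c: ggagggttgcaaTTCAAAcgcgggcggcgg

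The stretch of Cdk1 is at chr10:69352910-69352939, Ccnb2 at chr9:70421533-70421562, Top2a at chr11:99024195-99024224, Anln at chr9:22389168-22389197, Racgap1 at chr15:99651634-99651663 and Ect2 at chr3:27153975-27154004, all on the minus strand. Those of Cenpa at chr5:30666890-30666919, Cdca3 at chr6:124830194-124830223 and Ube2c at chr2:164769888-164769917 are on the plus strand. The hexamer began 15 bases before the start in Cdk1 and at base 5 after it in Ccnb2. Anln and Cdca3, the 2 genes called in both libraries between the cycling clusters, both have the hexamer, as do 24 of the 31 genes. CCAAT was found in the window of Cdca3 and not in that of Anln. Ccnb2, the entry gene with the highest endothelial ratio, has 3 CCAAT boxes with first bases 33 bases apart, shown in capitals in the 150 bases before its start (chr9:70421555-70421704, minus strand):
Ccnb2: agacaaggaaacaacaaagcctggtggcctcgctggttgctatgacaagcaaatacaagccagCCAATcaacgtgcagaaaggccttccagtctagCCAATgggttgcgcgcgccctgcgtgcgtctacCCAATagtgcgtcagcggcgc

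The genes differed in how far their UMIs lay in the cycling clusters, which did not hold every cell called S or G2M. Outside C-EC, 496 c-Maf KO endothelial cells were called S and 23 G2M, and 114 and 12 in control. The median gene had 82.7% of its endothelial UMIs in C-EC in c-Maf KO and 82.8% in control. Hmmr, a microtubule-binding protein of the spindle, reached 96.0% in c-Maf KO and 86.0% in control. Nusap1 had 93.5% in c-Maf KO and 87.6% in control, and Ube2c 91.6% in c-Maf KO and 86.8% in control. At the other end Cenpa had 35.1% of its endothelial UMIs in C-EC in c-Maf KO (33.6 to 36.7) and 20.5% in control (18.1 to 23.0). Smc4 had 50.05% in c-Maf KO and 25.3% in control, and Smc2 56.1% in c-Maf KO and 42.0% in control. In these 3 genes, cells outside the cycling cluster gave a larger part of the UMIs than in any other member.

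Outside C-EC, 31 of the 35 genes had at least 50 UMIs over both libraries, and 29 of these were called higher in c-Maf KO and none lower, against 13.2% and 14.7% of all genes. Cenpa had 121 CPM in c-Maf KO and 54.7 CPM in control there (log2 1.15), and made 2314 of the 9709 UMIs of the list in c-Maf KO. Smc4 had 82.5 CPM in c-Maf KO and 65.8 CPM in control (log2 0.32) and did not pass the rule. Top2a had 31.6 CPM in c-Maf KO and 6.79 CPM in control (log2 2.21, 1.92 to 2.53); its log2 ratio over all endothelial cells was 1.80. Hmmr had 22 UMIs in c-Maf KO and 20 in control outside C-EC, too few for the rule. In hematopoietic cells the median gene had 70.6% of its UMIs in C1 in c-Maf KO and 57.4% in control. Outside C1, 2 of the 35 genes were called higher in c-Maf KO (Bub1b and Cdca3) and none lower, against 4.62% and 7.9% of all genes.

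**Figure D3:**
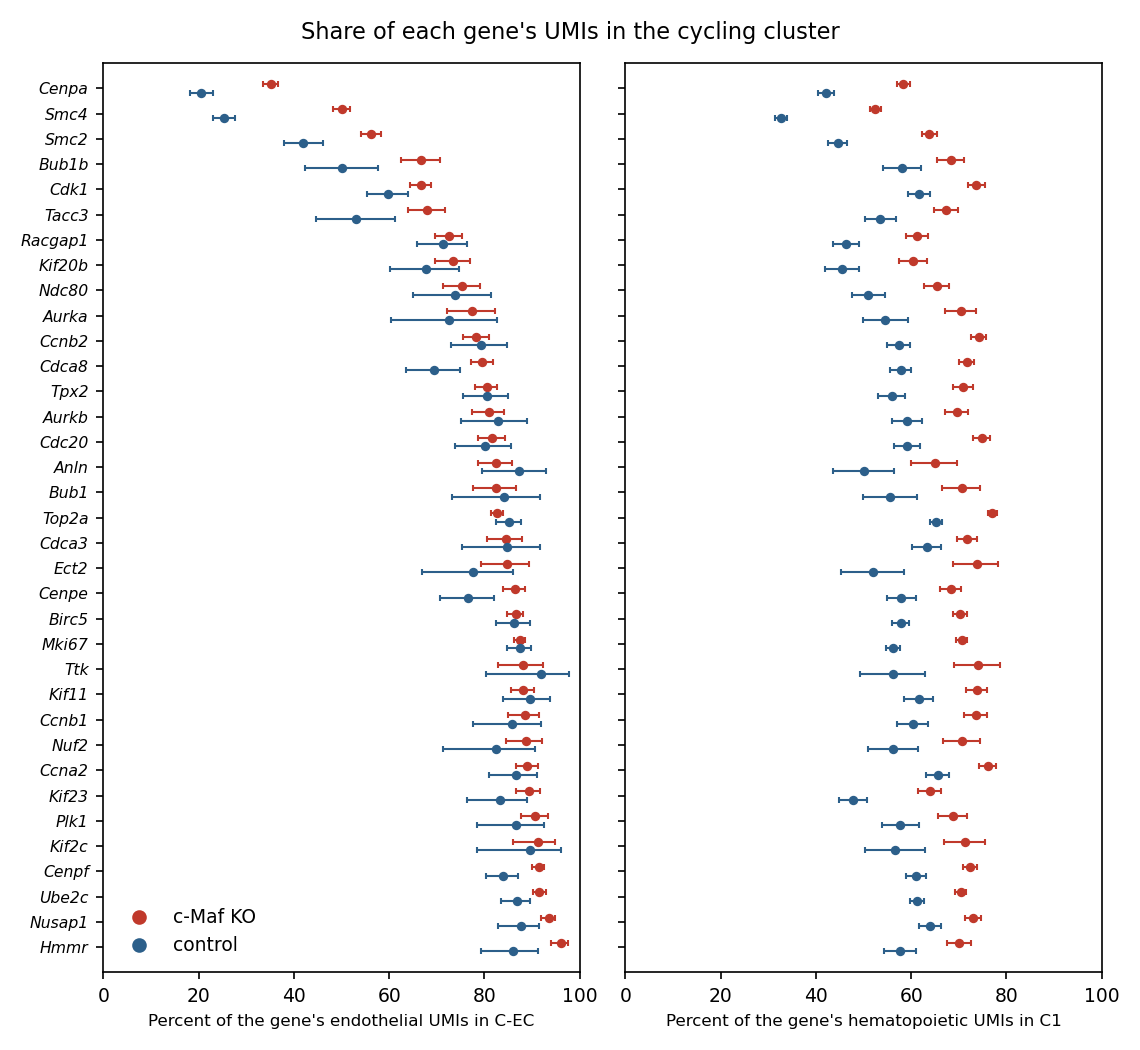
Percent of each gene's UMIs that lay in the cycling cluster, for endothelial cells (C-EC, left) and hematopoietic cells (C1, right), c-Maf KO in red and control in blue, with exact binomial 95% intervals. Cenpa, Smc4 and Smc2 lie lowest among endothelial cells, and most other genes lie above 70%.

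The cycling clusters were checked against marker genes. In C-EC the 8 endothelial markers summed to 5238 CPM in c-Maf KO and 6029 CPM in control, with none at 0, and the 4 hematopoietic markers to 61.3 CPM in c-Maf KO and 75.3 CPM in control. Of the 8 neutrophil markers 3 were at 0 in C-EC of c-Maf KO and 2 in control. The 5 sinusoidal markers summed to 1246 CPM in c-Maf KO and 5991 CPM in control. In C1 the 8 endothelial markers summed to 190 CPM in c-Maf KO and 183 CPM in control. The 7 B lineage markers in C1 summed to 7121 CPM in c-Maf KO and 6613 CPM in control, and the 8 neutrophil markers to 2370 CPM in c-Maf KO and 3181 CPM in control. C1 thus held cells of more than 1 lineage, and most of its 637 c-Maf KO and 272 control cells had more B lineage than neutrophil UMIs. Its 589 c-Maf KO cells with more B lineage than neutrophil UMIs had 9805 CPM of the mitosis genes, and the 245 such control cells 10415 CPM. Its 33 c-Maf KO cells with more neutrophil UMIs had 2265 CPM, and the 18 such control cells 2699 CPM.

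Between the libraries, few of the mitosis genes of C-EC were called. A median of 18 of the 35 genes was detected per C-EC cell in c-Maf KO and 19 in control. By the size rule 4 genes were lower and none higher, against 14.6% and 5.7% of all genes, and 4 of 35 is near that background. They were Ect2 (log2 -0.94, -1.35 to -0.49), Kif2c (-0.78), Racgap1 (-0.70) and Ube2c (-0.70). Ect2 had 51.0 CPM in c-Maf KO and 97.2 CPM in control, on 62 UMIs in control. Racgap1 had 207 CPM in c-Maf KO and 336 CPM in control. Which genes were called depended on the setting. With cells thinned to 1128 UMIs, Ect2 (log2 -0.47, -1.43 to 0.70) and Kif2c (-0.59) were not called, and the 5 lower genes were Nusap1, Kif11, Kif20b, Racgap1 and Ube2c. With median-ratio scaling only Ect2 and Kif2c were called, and in female-type cells Kif2c, Ect2, Cdc20 and Ube2c. Of the 35 log2 ratios 34 were below 0, with a median of -0.35 against -0.15 for all genes, and only Cenpa was above 0 (0.047). In control a single C-EC cell held 329 of the 6535 UMIs of these genes (5.03%), and the same 4 genes were called without the highest cell of each cluster.

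Cells called G2M were compared alone, a choice made after the data were seen. Of C-EC, 284 cells in c-Maf KO (69.6%) and 61 in control (68.5%) had that call, and they had 9675 CPM in c-Maf KO and 13669 CPM in control (log2 -0.50). The S-called C-EC cells had 4578 CPM in 107 c-Maf KO cells and 3034 CPM in 28 control cells. In C1, G2M-called cells had 12818 CPM in c-Maf KO and 13062 CPM in control. No member was called in either direction between the libraries in C1, where 1.49% of all genes were higher and 2.2% lower, and Ccnb2 and Ube2c marked the ends of the range at log2 0.18 and -0.29.

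The endothelial and hematopoietic cycling cells were compared within each library. The 35 genes together had 8089 CPM in C-EC and 9289 CPM in C1 in c-Maf KO (log2 -0.20, -0.22 to -0.18). In control they had 10249 CPM in C-EC and 9667 CPM in C1 (log2 0.08, 0.05 to 0.12). The C1 cells with more B lineage than neutrophil UMIs had 9805 CPM in c-Maf KO and 10415 CPM in control. Both values lay above that of C-EC in the same library, in control with intervals that overlap. The 30 S phase genes had 3355 CPM in C-EC and 5843 CPM in C1 in c-Maf KO, and 3513 CPM in C-EC and 5834 CPM in C1 in control. The ratio of mitosis to S phase UMIs was 2.41 in C-EC and 1.59 in C1 in c-Maf KO, and 2.92 in C-EC and 1.66 in C1 in control. Of these 30 genes 14 were lower in C-EC than in C1 in both libraries by the size rule and none higher. Over all genes with enough UMIs, 15.9% were lower and 23.3% higher in both.

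Of the 35 genes, Anln alone was called higher in C-EC than in C1 in both libraries, and Cdca3 alone lower. Over all genes with enough UMIs, 23.3% were higher and 15.9% lower in both, so both counts of the list lie below the background. Anln had 104 CPM in C-EC and 40.1 CPM in C1 in c-Maf KO (log2 1.38, 1.14 to 1.62). In control it had 151 CPM in C-EC and 40.0 CPM in C1 (log2 1.91, 1.51 to 2.31). Cdca3 had 95.2 CPM in C-EC and 202.5 CPM in C1 in c-Maf KO (log2 -1.09, -1.27 to -0.91). In control it had 113 CPM in C-EC and 198 CPM in C1 (log2 -0.80, -1.19 to -0.46).

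In c-Maf KO alone, 1 gene was higher in C-EC than in C1 and 5 were lower, against 32.5% and 20.8% of all genes. The lower ones were Ccnb1, Ccnb2, Cdc20, Ube2c and Cdca3, that is 2 cyclins and all 3 genes of the degradation group. In control alone, 8 were higher and 1 lower, against 31.5% and 21.7% of all genes. The higher ones were Anln, Ect2, Racgap1, Kif20b, Kif2c, Tpx2, Ttk and Bub1, of which 4 belong to cytokinesis. Each of these counts lies below the share of all genes, so the roles named only describe the genes called. Ect2 had 51.0 CPM in C-EC and 41.6 CPM in C1 in c-Maf KO, and 97.2 CPM in C-EC and 39.4 CPM in C1 in control. Ube2c had 420 CPM in C-EC and 684 CPM in C1 in c-Maf KO, and 681 CPM in C-EC and 839 CPM in C1 in control. The log2 ratio was above 0 in both libraries for 13 of the 35 genes and below 0 in both for 14.

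**Figure D4:**
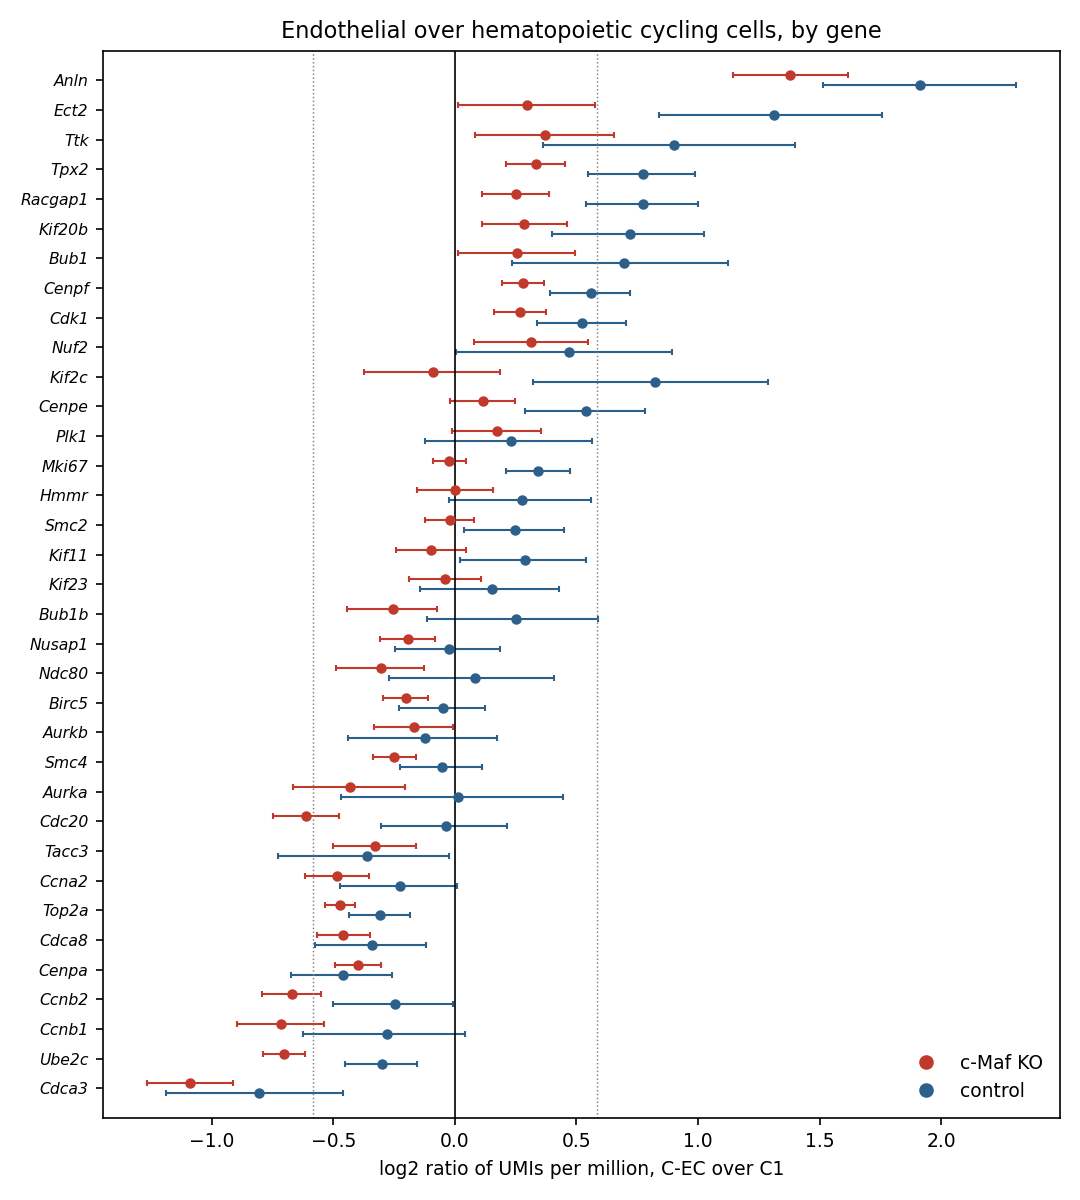
log2 ratio of CPM in C-EC over C1 for each mitosis gene in c-Maf KO (red) and control (blue), with exact 95% intervals for counting error; dotted lines mark 1.5-fold in each direction. Anln stands apart on the right in both libraries (1.38 and 1.91) and Cdca3 on the left (-1.09 and -0.80).

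Anln stood in the same order among G2M-called cells. There it had 128 CPM in C-EC and 55.3 CPM in C1 in c-Maf KO, and 208 CPM in C-EC and 56.1 CPM in C1 in control. T-Foxp3 and Leukocytes_1 cells with that call had 43.8 and 45.2 CPM of Anln in c-Maf KO and 53.1 and 54.5 CPM in control. Both values of C-EC lay above those of these hematopoietic clusters and of Neutrophils (21.4 CPM in c-Maf KO and 30.6 CPM in control). Cdca3 in G2M-called cells had 113 CPM in C-EC and 272 CPM in C1 in c-Maf KO, and 150 CPM in C-EC and 263 CPM in C1 in control. G2M-called T-Foxp3 cells had 220 CPM of Cdca3 in c-Maf KO and 185 CPM in control. Racgap1 in G2M-called cells had 246.5 CPM in C-EC and 252 CPM in C1 in c-Maf KO, and 448 CPM in C-EC and 276 CPM in C1 in control. With each cell thinned to 1128 UMIs, Anln had a log2 ratio of 0.65 in c-Maf KO and 1.05 in control and was no longer called in both, and Cdca3 still was.

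**Figure D5:**
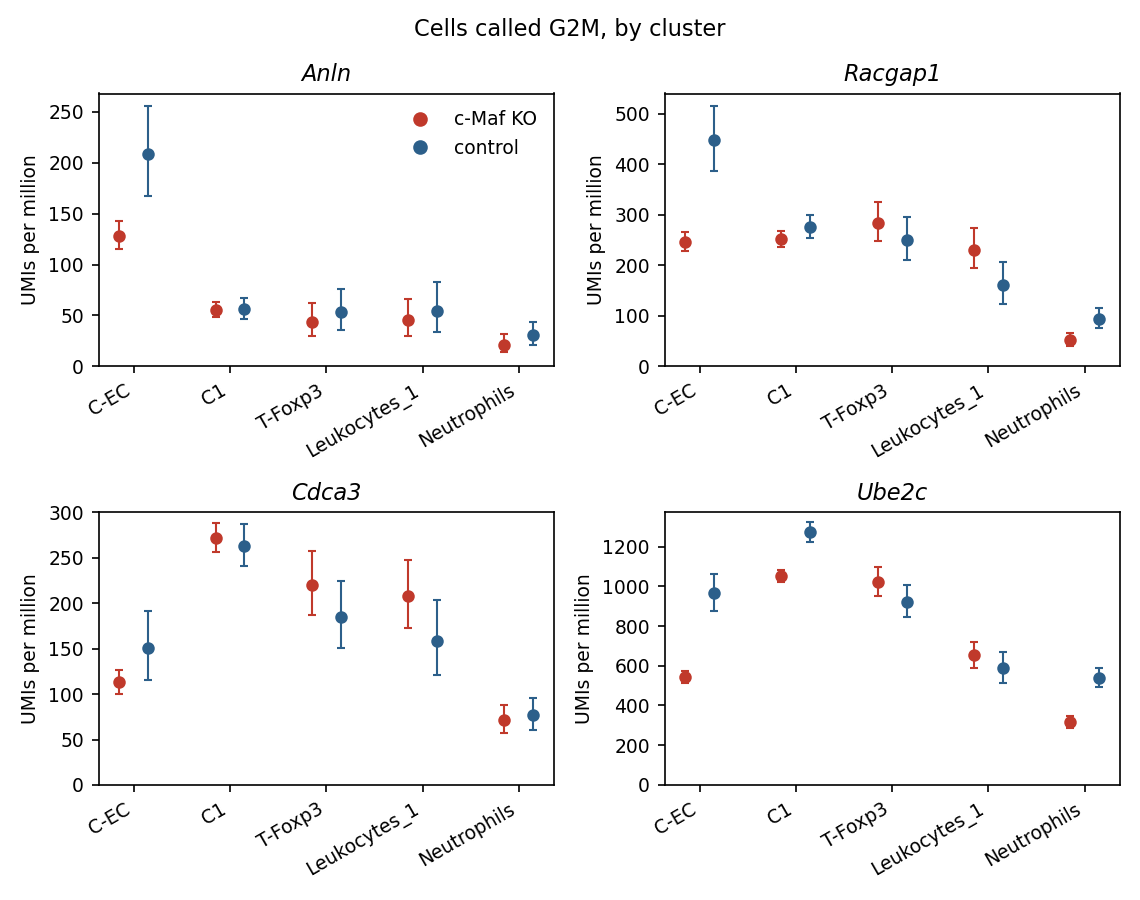
Level of Anln, Racgap1, Cdca3 and Ube2c in cells called G2M of 5 clusters, in CPM with exact Poisson 95% intervals, c-Maf KO in red left of control in blue. Anln is highest in C-EC (128 and 208 CPM), and Cdca3 is lower in C-EC (113 and 150 CPM) than in C1 (272 and 263 CPM).

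G2M-called Neutrophils numbered 111 in c-Maf KO and 80 in control, and had 3115 CPM in c-Maf KO and 4707 CPM in control, with a median of 1 of the 35 genes detected in c-Maf KO and 2.5 in control. The T-Foxp3 cells with that call had 11529 CPM in c-Maf KO and 10793 CPM in control, with a median of 29.5 genes detected in c-Maf KO and 28 in control. A call of G2M thus covered Neutrophils in which most of these genes had no UMI.

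The same comparisons were made for 82 other mitosis genes, and the shares of all genes called are those given above. In endothelial cells 75 of the 82 were higher in c-Maf KO and none lower, against 14.2% and 15.5% of all genes, with a median log2 ratio of 1.43, led by Mybl2 (2.66), Cenpm (2.31) and Diaph3 (2.21). In hematopoietic cells 38 were higher and none lower, against 5.44% and 9.14%, led by Cenpk (0.85), Psrc1 (0.84) and Pimreg (0.82). Of 30 S phase genes 29 were higher in c-Maf KO endothelial cells and 5 in hematopoietic cells. In C-EC 15 of the 82 were lower in c-Maf KO and none higher, against 14.6% lower and 5.7% higher of all genes, so the count of lower genes is near that background. Among them were the lowest ratios of the list, in Nek2 (-1.29), Cenpl (-1.16) and Ska2 (-1.09). In C1 only Cenpi (-0.67) and Iqgap3 (-0.62) were called, both lower, against 2.2% of all genes.

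Between C-EC and C1, 11 of the 82 were higher in C-EC in both libraries and 7 lower, against 23.3% higher and 15.9% lower of all genes, so both shares of the list lie below the background. Iqgap3, a scaffold protein of the IQGAP family, had the highest ratio of the list. It had 84.1 CPM in C-EC and 14.97 CPM in C1 in c-Maf KO (log2 2.49), and 154 CPM in C-EC and 22.9 CPM in C1 in control (log2 2.74). Pimreg (1.65 in c-Maf KO and 2.31 in control) and the ubiquitin ligase G2e3 (1.496 in c-Maf KO and 2.26 in control) followed. Hmgb2, a chromatin protein, was lower in C-EC, at -1.10 in c-Maf KO and -1.37 in control. The phosphatase Cdc25b, which activates Cdk1, was lower too, at -1.31 in c-Maf KO and -1.11 in control. The third of the lowest was Cenpk in c-Maf KO (-1.09) and Cks1b in control (-0.91).

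Across the 17 clusters with at least 50 cells in each library, 34 points in all, the genes outside both lists with levels most like the sum of the 35 were Fbxo5, Esco2, Rrm2, Hist1h3c, Hist1h2af, Spag5, H2afx and Sapcd2. Their Pearson correlations on log2(CPM + 1) were 0.96 to 0.94, as a description over points that share libraries. Fbxo5 had 98.4 CPM in C-EC and 213 CPM in C1 in c-Maf KO, and 135 CPM in C-EC and 232 CPM in C1 in control. Histone genes have near-identical copies, so the values of Hist1h3c and Hist1h2af are uncertain.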

How the data were processed

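Per the labels, sorted cells went into 2 droplet single-cell RNA libraries. The authors deposited whole UMI counts per gene and barcode, not normalized, and a table with cluster, phase, genotype and sex, with UMI counts and the percent of mitochondrial UMIs per cell, per the file headers. Female-type and male-type cells were set here by Xist and the Y-linked genes and not by that sex column. Per the submitters' processing notes, which assign no roles, the tools and build were Seurat 3.2.3, FastQC 0.11.3, mm10 and Cell Ranger 4.0.0. The sources used here give no counting parameters or strand setting. Annotated cells held 51774798 UMIs in c-Maf KO and 45157041 in control, and intervals cover counting error only. S, S2, KOS_1, KOS_2, KOS_3, C-EC and PV were taken as endothelial, clusters D and H as neither, and the rest as hematopoietic.

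UMIs were summed per cluster and library with scipy 1.17.1. The 95% intervals are exact Poisson for levels, Clopper-Pearson for shares and exact binomial, conditional on the summed UMIs, for ratios, to which a prior of 0.5 UMI was added. No filter on cells was added to the authors' annotation. Scrublet in scanpy 1.11.5 used a common score threshold of 0.25, set after its automatic one failed. The size rule was tested on simulated data: it recovered 100% of 200 genes changed 3-fold in endothelial cells and 94.5% in C-EC, and called 0.418% and 2.24% of unchanged genes. The simulated sums had Poisson counting error alone around a mean shared by both libraries. These shares therefore cover no variation between cells or mice, and no changes smaller than 3-fold were simulated. The members and lists were chosen with earlier results of these data known. The text names all 35 members, the 3 highest and lowest called of the other mitosis genes per comparison, and the 8 genes most alike (at least 200 UMIs). The split of C1 by marker UMIs was chosen after values were seen.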

Additional observations from a re-analysis of the deposited data

Results flagged for a closer look

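Barcodes with 5000 genes or more carry no cluster in the authors' annotation and entered no comparison, yet they held a high level of the mitosis genes. They numbered 250 in c-Maf KO and 246 in control. Their summed level was 4466 CPM in c-Maf KO (4418 to 4514) and 2706 CPM in control (2669 to 2743), above that of all endothelial cells (1684 CPM in c-Maf KO and 629.6 CPM in control). At least 10 of the 35 genes were detected in 171 of them in c-Maf KO (68.4%) and 106 in control (43.1%). Of those, 107 in c-Maf KO and 38 in control had more UMIs of endothelial than of hematopoietic markers. Their median depth was 26464 UMIs in c-Maf KO and 27839 in control, and how many are doublets was not tested.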

How the results depend on the processing

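Every value here is c-Maf KO over control, or C-EC over C1, as a log2 ratio of the 35 genes summed unless another unit is named. No summed level that passed the size rule turned its direction under any setting run. Of the single genes named, Kif2c, lower in all C-EC cells, had 53.7 CPM in c-Maf KO and 51.2 CPM in control in male-type C-EC, on 25 UMIs in c-Maf KO and 5 in control. In all, 50 recomputed sums, shares and counts stayed within the counting interval (counts within 1.5 times), while 51 did not. Endothelial cells (1.42) gave 1.497 with median-ratio scaling, 1.46 with the mean of per-cell CPM, 1.37 with the members off the Seurat list, 0.93 (female-type cells), 1.88 (male-type cells), 0.021 with the control mix of clusters, 1.10 without C-EC and 1.47 without KOS_2. Hematopoietic cells (0.61) gave 0.63 per cell, 0.58 off the Seurat list, 0.11 (female-type), 1.45 (male-type), and 0.25 without C1. C-EC (-0.34) gave -0.19 with median-ratio scaling, -0.41 off the Seurat list, -0.29 (female-type), -0.75 (male-type), and -0.50 in G2M-called cells. C1 (-0.06) gave -0.088 thinned, -0.014 per cell, 0.020 (female-type), -0.47 (male-type), and -0.027 in G2M-called cells. C-EC over C1 in c-Maf KO (-0.20) gave -0.31 with median-ratio scaling, -0.31 thinned, -0.31 per cell, -0.15 off the Seurat list, -0.16 (female-type), -0.38 (male-type) and -0.41 in G2M-called cells. C-EC over C1 in control (0.08) gave -0.040 with median-ratio scaling, -0.080 thinned, -0.0058 per cell, 0.18 off the Seurat list, 0.15 (female-type) and -0.096 (male-type), so its sign depends on the setting. Of members called, hematopoietic cells (21) gave 0 at a fold of 2, 0 (female-type) and 34 (male-type). C-EC over C1 in both libraries (Anln and Cdca3) gave 1 at a fold of 2 (Anln) and 1 thinned (Cdca3). It gave 4 of 26 with enough UMIs in male-type cells (Ccnb1, Ccnb2, Cdca8 and Ube2c, all lower, against 20.2% of all genes). There Anln was called higher in c-Maf KO (1.58) but had too few UMIs in control (16 in C-EC and 10 in C1, 2.17). Cdca3 was called lower in male-type cells of c-Maf KO (-0.89) and not in control (-0.47, -1.43 to 0.33). C-EC (4 lower) gave 0 at a fold of 2, 2 with median-ratio scaling, 11 of 28 with enough UMIs in male-type cells (17.6% of all genes lower), from 43 c-Maf KO and 10 control cells, and 13 of 35 in G2M-called cells (14.5% lower). C1 (0) gave 1 thinned (Plk1) and 11 lower in male-type cells (5.35% of all genes lower), from 22 male-type control cells. The difference in the share of cells with at least 2 members was 15.2 percentage points in endothelial cells, 32.6 unthinned and 11.5 for at least 3 members. In hematopoietic cells it was 5.77, and 2.18 unthinned. The cause of these shifts was not tested. G2M-called cells, the settings without the highest cell and without KOS_2, and all settings for C-EC and C1 counts were chosen after seeing the data. No paired analysis was possible because each group has 1 library. Control C-EC had 89 cells, with 45 to 62 UMIs of Ttk, Aurka, Kif2c, Nuf2, Bub1 and Ect2, so the ratios of these genes have wide intervals.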
